A study of Mus musculus with 2 samples.

Results

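A class of fibroblast-like cells from mouse dorsal skin, with the working name Igfbp2 Grem1 Cyp26b1 fibroblasts, was chosen by its own transcript counts. Barcodes with at least 500 genes, at least 1000 UMIs (distinct RNA molecules) and at most 10% mitochondrial UMIs were kept, 3797 of 5257. Of these, 741 passed a gate of at least 100 UMIs per 10,000 over Col1a1, Col1a2, Col3a1, Dcn and Lum, which encode fibrillar collagens and small proteoglycans. Each gate cell received 4 sums of log1p UMIs per 10,000, over 5 genes each. Class B held the cells in which the sum over Igfbp2, Grem1, Cyp26b1, C1qtnf3 and Itgbl1 was the highest and at least 2 of these genes had a UMI. It had 259 cells, which was 34.95% of the gate cells (exact Clopper-Pearson 95% interval 31.5 to 38.5%) and 6.82% of the cells kept (6.04 to 7.67%). The other sums gave 269 cells of class A (Myoc, Ptx3, Fst, Has1, Prg4), 127 of class C (Inmt, Gdf10, Mgp, C3, Chrdl1) and 3 of class D (Prlr, Slc26a7, Pappa2, Crabp1, Dkk2), while 83 gate cells had no class.

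The study profiled skin macrophages of WT male mice by droplet-based sequencing of RNA 3′ ends, with 1 library at an age of 9 weeks and 1 at 108 weeks, each from the pooled dorsal skin of 2 mice. Cells were sorted as F4/80 positive and MHCII high, the labels call them macrophages, and fibroblasts were not the target of the sort. Both libraries lie in 1 count matrix, where a barcode suffix separates them, and no label ties a suffix to an age. Ages were therefore not compared, and the libraries are called by their suffix, each of unknown age. The library with suffix 1 had 3235 barcodes and 35821853 UMIs, and that with suffix 2 had 2022 barcodes and 20382748 UMIs. Only 1 barcode sequence occurred in both libraries, and 1 cell with it was kept, which was not a gate cell.

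Class B had 102 cells with suffix 1, which was 37.9% of 269 gate cells (32.1 to 44.0%), and 157 with suffix 2, which was 33.3% of 472 (29.0 to 37.7%). Of the cells kept, it made up 4.26% with suffix 1 (3.48 to 5.14%) and 11.2% with suffix 2 (9.60 to 13.0%). Its cells had a median of 17356 UMIs and 3718 genes, where class A had 13017 UMIs and class C had 7827. Class B cells were deeper than the cells of the other classes in both libraries, with medians of 21014.5 and 16434 UMIs against 16145 and 12286 in class A. All intervals are at 95% and cover counting error only, since cells of a library share their source and there is 1 library per age.

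Dermal fibroblasts make and arrange the collagen, proteoglycans and elastic fibres of the skin, and they secrete factors that act on epidermis, hair follicles, vessels and leukocytes. Fibroblasts of the papillary layer under the epidermis, of the deeper reticular layer, of the hair follicle and of the fascia differ in their genes. Signals of the WNT, BMP, retinoic acid and insulin-like growth factor pathways act in the skin, and their local strength depends on secreted inhibitors and on enzymes that remove the ligand.

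The working name fits part of the class. Of the 259 cells, 39 had a UMI of all 3 genes of the name, 75 of 2, 102 of 1 and 43 of none. The cells with none of them made up 30 of 102 with suffix 1 and 13 of 157 with suffix 2. Itgbl1 and C1qtnf3, which are not in the name, were the genes that most members shared, so the cells are called class B here. In other gate cells, at least 1 of the 3 genes was found in 89 of 482, and all 3 in none. Fibroblast markers were present, with Pdgfra, a growth factor receptor, in 170 class B cells and Dpt, a matrix protein, in 243. Thinned to 2000 UMIs per cell, Pdgfra was found in 15.1% of class B cells, 29.7% of class A, 28.2% of class C and 0.0490% of cells with leukocyte markers.

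The 5 genes that selected the class are described first, with no test, and levels are given for suffix 1 and then suffix 2. A level is a gene's summed UMIs per 1000000 UMIs of all genes in the same cells (CPM). Igfbp2 (ENSMUSG00000039323, chromosome 1, 72824503 to 72852474 of GRCm38) encodes a binding protein of insulin-like growth factors. It was at 489.6 and 1186 CPM in class B, against 0.437 and 1.81 in the other gate cells. Most of it came from few cells: 66 of 259 had a UMI, and the 26 cells with the most held 92.7% of the 4066 UMIs, up to 505 in a cell. Grem1 (ENSMUSG00000074934, chromosome 2, 113746164 to 113758646), a secreted antagonist of BMPs, was at 82.7 and 532 CPM in class B, against 4.81 and 18.7 in the other gate cells, in 33 of 102 and 104 of 157 class B cells. Cyp26b1 (ENSMUSG00000063415, chromosome 6, 84571414 to 84593908), an enzyme that breaks down retinoic acid, was at 149 and 593 CPM in class B, against 36.7 and 35.01 in the other gate cells, in 53 and 113 class B cells. These 3 genes were each lower with suffix 1 than with suffix 2 in class B.

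C1qtnf3 (ENSMUSG00000058914, chromosome 15, 10952332 to 10980150), a secreted protein related to C1q and TNF, was at 268 and 485 CPM in class B, against 78.7 and 83.9 in the other gate cells. A UMI of it was found in 216 class B cells and in 25.1% of the other gate cells. Itgbl1 (ENSMUSG00000032925, chromosome 14, 123659971 to 123975618), a secreted protein with repeats like those of integrin beta chains, was at 306 and 522 CPM in class B, against 148 and 197 in the other gate cells. It was detected in 255 of 259 class B cells, and in 58.5% of the other gate cells, so its presence alone did not set the class apart. At an equal depth of 2000 UMIs per cell, which 251 class B cells reached, the shares with a UMI were 17.9% for Igfbp2, 30.7% for Grem1, 35.1% for Cyp26b1, 43.4% for C1qtnf3 and 61.4% for Itgbl1. There were 2118 cells with leukocyte markers, with a median of 11042 UMIs before thinning, and in the 2040 of them that reached this depth the same shares were 0.0490%, 0.147%, 0.539%, 0.0980% and 0, the last with a limit of 0.147% from 3 counts. Class B was selected on these genes, so its higher shares follow from the rule.

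**Figure D1:**
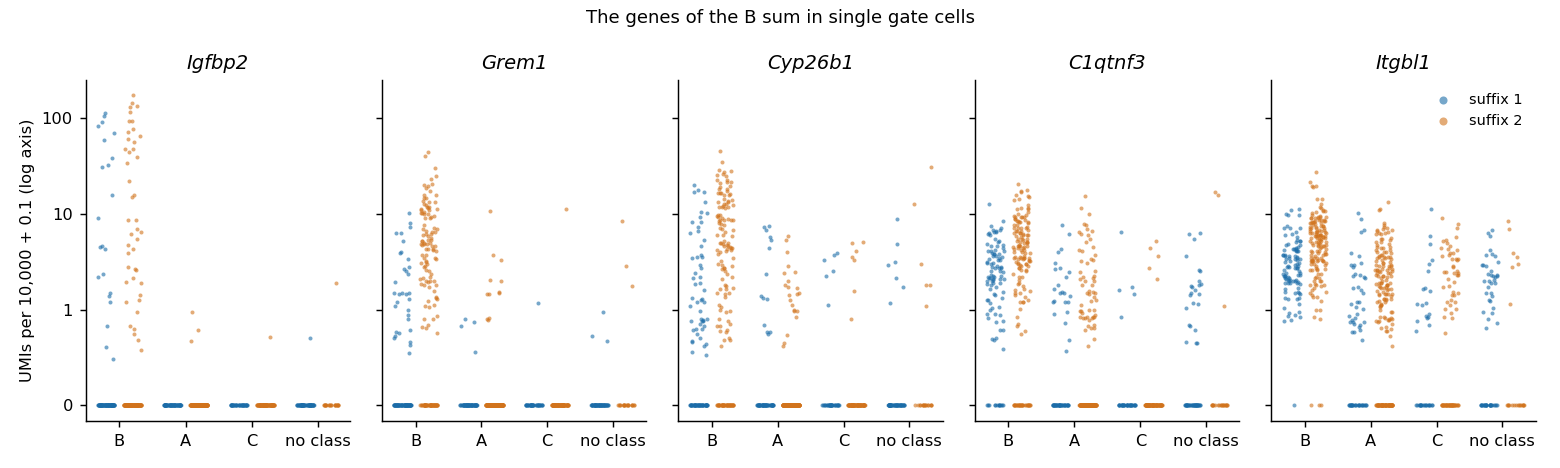
Each point is a gate cell, placed by its class and barcode suffix, and the log axis gives UMIs per 10,000 plus 0.1 of the 5 genes that selected class B. Igfbp2 was found in 66 of 259 class B cells, while Itgbl1 was found in 255 and also in other classes; 3 cells of class D are not drawn.

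Members differed in how many of the 5 genes they carried. There were 75 cells with 2 of them, 84 with 3, 62 with 4 and 38 with 5. Among the cells with 2 genes, 43 had C1qtnf3 and Itgbl1, 21 had Cyp26b1 and Itgbl1, and the rest had other pairs. Cyp26b1 was found in 83.3% of the class B cells with Igfbp2 and in 57.5% of those without. For C1qtnf3 these shares were 80.3% and 84.5%. The rule asks for 2 of the 5 genes, so a cell without Igfbp2 must carry 2 of the other 4, which raises the shares in those cells. The sum over the 5 genes led the next sum by a median of 2.80, with a lowest lead of 0.00536 and a highest of 11.1. In 23 cells the lead was under 0.5. Just outside, 135 gate cells had 2 or more of the genes but a higher sum of another class, 27 of them within 0.5 of it, and 10 had the highest sum with 1 gene alone. The lowest gate sums in class B were 114, 127 and 150 UMIs per 10,000. Below the gate, 16 cells met the other conditions, led by sums of 74.7, 24.0 and 23.7, and 9 of these 16 had a leukocyte sum (13 macrophage and MHC class II genes) of at least 20 per 10,000.

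The sums of the other classes were below that of class B in its cells by selection. In the median class B cell, the sums were 4.84 for its own genes, 1.35 for class A, 0 for class C and 0 for class D. Has1, a hyaluronan synthase of the class A sum, had a median of 0.827 UMIs per 10,000 in class B cells and 26.6 in class A cells, and it was the gene of another sum found in most class B cells, 148. The other 14 genes of those sums had a median of 0. Among them, C3 of the class C sum was found in 42.86% of class B cells, and Fst of the class A sum in 33.59%. Crabp1, of the class D sum, was still found in 20.85% of class B cells, 0.372% of class A cells and no class C cell, and at 2000 UMIs per cell in 5.98% of class B cells and in no cell of 256 of class A or 117 of class C, with limits of 1.17% and 2.56% from 3 counts. Dkk2, of the same sum, was found in 15.1% of class B cells. Of the Crabp1 UMIs in class B, 181 lay in the 66 cells with Igfbp2 and 51 in the 193 cells without it. Class A gave the next highest sum in 154 class B cells, class C in 52 and class D in 35, while 18 had no other sum above 0.

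Transcripts of the gate genes differed in amount between classes and between libraries. Their sum had a median of 2274 UMIs per 10,000 in class B with suffix 1 and 599 with suffix 2. In class A these medians were 762 and 187, and in class C they were 560 and 234. Col1a1, a chain of fibrillar collagen, made up 96823 and 25929 CPM of class B, 49063 and 3718 of class A and 20800 and 2294 of class C. Dcn, the proteoglycan decorin, was at 14433 and 19392 in class B and at 13636 and 12852 in class A, so it did not follow the collagens across libraries. The 5 gate genes took 23.2% and 8.16% of all class B UMIs. Gate cells without a class came near class B with suffix 1, where the same share was 17.8%, but not with suffix 2, where it was 3.16%.

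**Figure D2:**
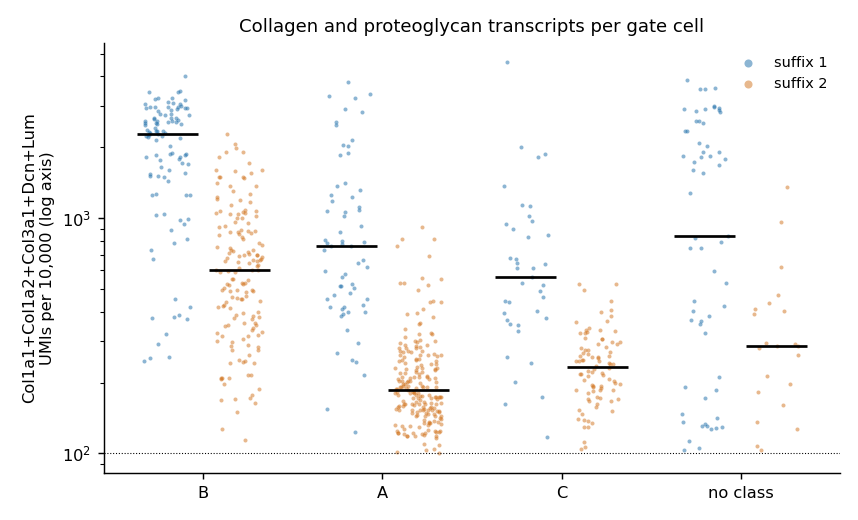
Each point is a gate cell, with the summed UMIs per 10,000 of the 5 gate genes on a log axis, by class and barcode suffix; bars are medians and the dotted line is the gate at 100. Class B had medians of 2274 with suffix 1 and 599 with suffix 2, above those of classes A and C in the same library.

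Class B was then compared with the 482 other gate cells over genes outside the rule. UMIs were summed per class, and a gene counted as higher or lower where the ratio was at least 2-fold in that direction in each library. Of 7332 genes with enough UMIs, 88 were higher (1.2%) and 281 were lower (3.83%), and the median log2 ratio was −0.07. Over class A, 180 of 6589 genes were higher (2.73%) and 264 lower (4.01%). Over class C, 225 of 5576 were higher (4.04%) and 199 lower (3.57%). In both of these comparisons, 100 genes were higher and 105 lower. Since the cells were selected on their counts, these numbers describe the class and test nothing. A list with 1 called gene, or none, is not read as a result about the list. Gate genes and Sparc took a large part of class B UMIs, and totals without them moved the median log2 ratio by 0.16, to 0.08, with 145 genes higher and 230 lower. The higher genes were then 38.7% of all called genes, against 23.8% with full totals. With the library of suffix 2 alone, 327 of 5770 genes were higher and 313 lower, and with suffix 1 alone 63 of 4472 were higher and 299 lower. The other gate cells differed in make-up between libraries. Gate cells without a class held 782229 of their 2287498 UMIs with suffix 1, and 130660 of 3312988 with suffix 2. The part of this difference in the ratios of each library was not tested.

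**Figure D3:**
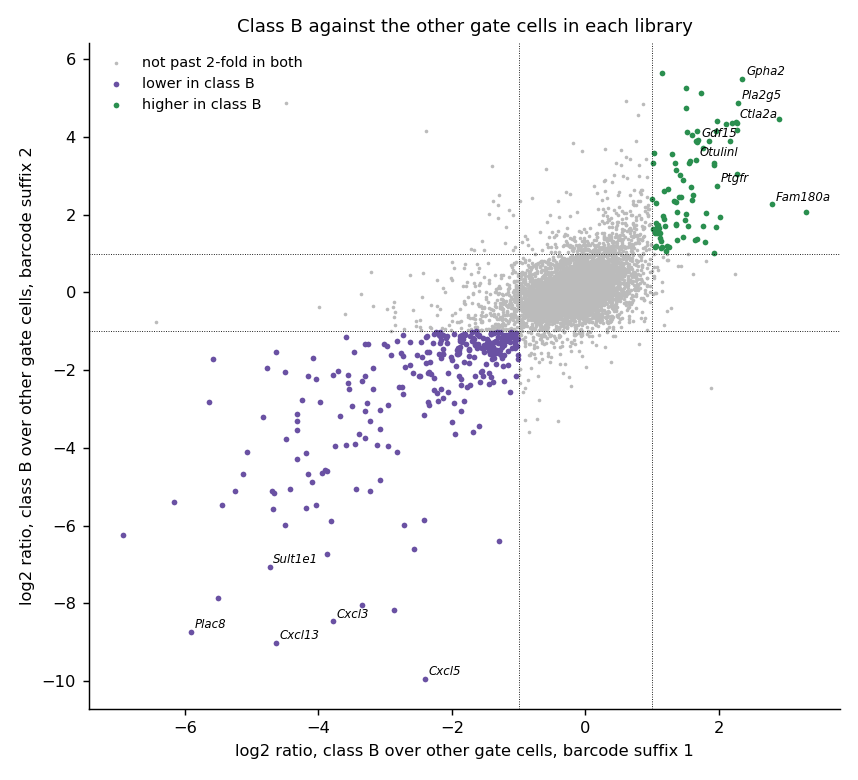
Each point is a tested gene, placed by its log2 ratio of class B over the other gate cells with suffix 1 (horizontal) and with suffix 2 (vertical), with a sum of 0 replaced by 3 counts; dotted lines mark 2-fold. The 88 higher genes lie at the upper right and the 281 lower genes at the lower left, where the chemokines Cxcl5 and Cxcl13 reach the lowest ratios with suffix 2.

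WNT pathway genes moved in both directions, with 1 ligand, an enhancer and intracellular or membrane inhibitors higher. The lower genes were secreted inhibitors of the Sfrp family and the ligand Wnt2. Dkk2, another secreted protein of the pathway, is a gene of the rule and was not tested. Of 13 tested genes, 4 were higher and 5 lower, beside 1.2% and 3.83% over all tested genes, with a median log2 ratio of 1.15 beside −0.07 over all genes. Wnt5a, a ligand that acts mainly without beta-catenin, was at 49.5 and 85.7 CPM in class B, against 16.6 and 8.15 in the other gate cells (log2 ratio 2.58, interval 2.19 to 2.98). Rspo1, a secreted protein that strengthens WNT signals, was at 92.5 and 96.7 CPM in class B, against 22.7 and 25.4 in the other gate cells. Apcdd1, a membrane inhibitor that WNT signals induce, was at 201 and 149 CPM in class B, against 63.8 and 9.96 in the other gate cells. At 2000 UMIs per cell it was found in 27.9% of class B cells and 14.75% of cells with keratinocyte markers. The fourth, Nkd2, an inhibitor inside the cell, was at 28.96 and 36.1 CPM in class B, against 7.43 and 11.2 in the other gate cells. All 4 had more than 2-fold the level of other gate cells in each library. The secreted frizzled-related proteins, which bind WNT ligands, were lower. Sfrp1 was at 39.2 and 82.9 CPM in class B, against 131 and 228 in the other gate cells. Sfrp2 had 5 UMIs in 2 class B cells, and Sfrp4 was found in 2 cells, at 12.2 and 0 against 65.1 and 68.5. Sfrp5 had 2 UMIs in class B (log2 ratio −6.00, interval −9.06 to −4.12). Wnt2, a ligand, had 0 UMIs in class B, which gives a log2 ratio of at most −4.93 with the limit of 3 counts. Against class A alone, 6 of 11 tested genes of the list were higher and 3 lower, beside 2.73% and 4.01% over all tested genes. Against class C alone, 5 of 10 were higher and 2 lower, beside 4.04% and 3.57%.

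Among ligands of the BMP, activin and TGF-beta family, 2 of 9 tested were higher and none lower, beside 1.2% and 3.83% over all tested genes, and the median was 0.47. Gdf15, a secreted protein induced by cell stress, was at 433 and 528 CPM in class B, against 134 and 35.01 in the other gate cells (log2 ratio 2.68, interval 2.53 to 2.83). It was found in 147 class B cells, and the 26 cells with the most held 71.9% of its UMIs. At 2000 UMIs per cell it was found in 30.3% of class B cells and 20.9% of cells with leukocyte markers. Inhbb, a subunit of activin B, was at 17.3 and 59.3 CPM in class B, against 5.68 and 11.5 in the other gate cells. Bmp4, which did not reach 2-fold in each library, was at 58.4 and 49.1 CPM in class B, against 33.2 and 25.7 in the other gate cells. Of 9 tested antagonists other than Grem1, none was higher, and Bmper, a secreted BMP regulator, had 1 UMI in class B (log2 ratio −7.12, interval −12.43 to −4.62). None of the 13 tested receptors and targets passed 2-fold in both libraries, beside 1.2% higher and 3.83% lower over all tested genes, with a median of −0.17. Id3, a target of BMP signals, was at 512 and 526 CPM in class B, against 657 and 842 in the other gate cells.

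Retinoid genes other than Cyp26b1 gave 0 higher and 1 lower of 11 tested, beside 1.2% and 3.83% over all tested genes. Aldh1a3, which makes retinoic acid, was lower, at 0.467 and 3.14 CPM in class B, against 23.2 and 22.03 in the other gate cells. Aldh1a1, another enzyme of that step, was at 210.2 and 398 CPM in class B, against 109 and 89.7 in the other gate cells, short of 2-fold with suffix 1. Over class A, Aldh1a1 was higher, as it was over class C. For the insulin-like growth factor genes, 2 of 11 were higher and 3 lower, beside the same shares. Pappa, a protease that cuts Igfbp4, was at 12.6 and 32.2 CPM in class B, against 2.62 and 3.92 in the other gate cells. Stc1, an inhibitor of that protease, was at 26.2 and 13.4 CPM in class B, against 3.50 and 0.604 in the other gate cells. Igfbp4 itself was at 26.2 and 1.18 CPM in class B, against 265 and 313 in the other gate cells, in 6 class B cells. Igfbp3, the main carrier of these growth factors in plasma, was at 142 and 138 CPM in class B, against 470.4 and 719.6 in the other gate cells. The growth factor Igf1 was at 49.05 and 147 CPM in class B, against 180.5 and 389.7 in the other gate cells. Of the binding proteins, Igfbp2 selected the class, and Igfbp5 was the most abundant listed gene, at 1675 and 1581 CPM in class B, against 1183 and 710.5 in the other gate cells.

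Of the 34 higher genes at 50 CPM or more, the 25 with the highest ratio were named by rule, Wnt5a, Rspo1, Apcdd1 and Gdf15 among them. Ctla2a, an inhibitor of cathepsin-like proteases, had the highest ratio of sums pooled over both libraries, at 465 and 5647 CPM in class B, against 97.05 and 269.8 in the other gate cells (log2 ratio 4.04, interval 3.95 to 4.13). Within each library, the ratios of Gpha2 and Pla2g5 were higher than that of Ctla2a. It was found in 47 of 102 and 147 of 157 class B cells. Endothelial cells carry Ctla2a too: 105 of 140 cells with endothelial markers had a UMI at 2000 UMIs per cell, and 143 of 251 class B cells. The 7 endothelial markers summed to 49.98 and 23.97 CPM in class B and 104 and 28.1 in the other gate cells, and their part in the Ctla2a level was not tested. Gpha2, a subunit of a glycoprotein hormone, was at 125 and 122 CPM in class B, against 24.5 and 2.72 in the other gate cells, in 64 class B cells. At 2000 UMIs per cell, Gpha2 was found in 12.75% of class B cells and 8.20% of cells with keratinocyte markers. Gal, which encodes the neuropeptide galanin, was at 239 and 58.1 CPM in class B, against 83.9 and 1.51 in the other gate cells, and 1 cell held 12.1% of its UMIs. In gate cells without a class, Gal was at 173.9 CPM with suffix 1 and 0 with suffix 2. Gpha2 and Gal were found in fewer than 100 class B cells, and the other genes of the set in more.

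Several of the higher genes encode enzymes. Pla2g5, a secreted phospholipase, was at 57.5 and 53.4 CPM in class B, against 11.8 and 1.81 in the other gate cells. Aldh3a1, an aldehyde dehydrogenase, was at 111 and 159 CPM in class B, against 25.8 and 7.85 in the other gate cells. At 2000 UMIs per cell it was found in 18.3% of class B cells and 13.1% of cells with keratinocyte markers. Sulf2 trims sulfate groups from heparan sulfate outside the cell, and it was at 359.7 and 318 CPM in class B, against 138 and 75.5 in the other gate cells, in 223 class B cells. Cpz, a secreted carboxypeptidase with a domain like that of WNT receptors, was at 1003 and 406 CPM in class B, against 491 and 33.5 in the other gate cells. Nt5e, which makes adenosine outside the cell, was at 49.5 and 112 CPM in class B, against 19.7 and 22.03 in the other gate cells, and the kinase gene Camk2a was at 81.8 and 30.2 CPM in class B, against 36.7 and 0.604 in the other gate cells. Ndufa4l2, a mitochondrial protein induced by low oxygen, was at 798 and 348 CPM in class B, against 262 and 20.8 in the other gate cells. At 2000 UMIs per cell it was found in 52.2% of class B cells, 33.8% of gate cells without a class and 26.2% of cells with keratinocyte markers.

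Further genes of the set had other roles. Ptgfr, the receptor of prostaglandin F, was at 56.5 and 78.97 CPM in class B, against 14.4 and 11.8 in the other gate cells. Cdh4, a cadherin of cell contacts, was at 214 and 163 CPM in class B, against 73.01 and 16.3 in the other gate cells, in 195 class B cells. S100a4, a calcium-binding protein often used as a fibroblast marker, was at 932 and 1264 CPM in class B, against 328 and 312 in the other gate cells. At 2000 UMIs per cell it was found in 62.95% of class B cells, 75.2% of cells with leukocyte markers and 76.8% of cells with Schwann markers. Ppp1r14a, an inhibitor of myosin phosphatase, was at 105 and 70.3 CPM in class B, against 27.1 and 3.92 in the other gate cells. Serpina3c, a protease inhibitor, was at 109 and 172 CPM in class B, against 46.3 and 27.5 in the other gate cells. The remaining 5 genes of the set were Tmem132c, Otulinl, Fam180a, Ankrd29 and Sectm1a, with summed levels in class B from 60.2 CPM for Ankrd29 to 127 for Tmem132c. Ltbp1 is given with the elastic fibre genes. All 25 were also higher over class A, and 24 over class C, with Wnt5a as the exception. Classes A and C make up most of the cells that the 25 genes were chosen against, so these counts follow largely from the choice. Over all tested genes, 2.73% were higher over class A and 4.04% over class C.

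Marker lists of dermal layers gave different counts. Over all tested genes, 1.2% were higher and 3.83% lower. Of 6 tested papillary genes, 2 were higher and none lower, with a median of 1.58, and both, Apcdd1 and Rspo1, are also in the WNT list. Of 13 reticular and adipogenic genes, 5 were lower and none higher, with a median of −0.83. Gpx3, a secreted glutathione peroxidase, was at 764 and 297 CPM in class B, against 2299 and 3225 in the other gate cells. Apod, a lipid carrier, was at 235 and 727 CPM in class B, against 828 and 2491 in the other gate cells. Cygb, a globin of fibroblasts, was at 12.2 and 16.9 CPM in class B, against 187 and 420.2 in the other gate cells. The lower genes of the list were completed by Cxcl12 and the transcription factor Ebf2. Among fascia and adventitia genes, 4 of 13 were lower and none higher, with a median of −0.96. Over class A, 4 of 12 were lower, beside 4.01% over all tested genes. Over class C, none of 11 was lower, beside 3.57%. Gfpt2, an enzyme of hexosamine synthesis, was at 146 and 398 CPM in class B, against 659 and 975 in the other gate cells. Pi16, a marker of adventitial fibroblasts, was at 134 and 529 CPM in class B, against 799.6 and 718 in the other gate cells, and did not reach 2-fold with suffix 2. Most genes of the hair follicle papilla list were too low to test, and 1 of 6 was lower, the growth factor gene Fgf7, a call that is lost with totals without gate genes and Sparc. Tendon genes gave 3 lower of 8, and Mkx, a transcription factor of tendon, was at 13.6 and 38.9 CPM in class B, against 10.1 and 4.83 in the other gate cells, short of 2-fold with suffix 1. Of 15 genes common to fibroblasts, S100a4 was higher, and Dpt, Mfap5 and Fap, a surface protease, were lower. Dpt was at 669.9 and 543 CPM in class B, against 1618 and 1107 in the other gate cells, a call that is also lost with totals without gate genes and Sparc. Myofibroblast genes gave 2 lower of 11, Fap and Myl9, with a median of −0.88.

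Of 19 tested collagen chains outside the gate, 7 were lower and none higher, beside 3.83% and 1.2% over all tested genes, with a median of −0.75. Col14a1, a collagen on the surface of fibrils, was at 55.6 and 20.4 CPM in class B, against 245 and 135 in the other gate cells. Col5a3, a minor fibrillar chain, was at 94.4 and 36.9 CPM in class B, against 236 and 75.2 in the other gate cells. Col15a1, of the zone around basement membranes, was at 579 and 249.5 CPM in class B, against 321 and 97.5 in the other gate cells, short of 2-fold with suffix 1. With totals without gate genes and Sparc, 2 collagen chains were higher and 6 lower. Sparc, a matrix protein that binds collagen, was at 44231 and 12808 CPM in class B, against 25568 and 2503 in the other gate cells. None of 13 collagen processing genes passed 2-fold in both libraries, with a median of 0.37. Of 9 small leucine-rich proteoglycans, 3 were lower, led in level by Ogn at 291 and 401 CPM in class B, against 703 and 989 in the other gate cells.

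Elastic fibre genes gave 2 higher and 3 lower of 22, beside 1.2% higher and 3.83% lower over all tested genes. Ltbp1, which holds latent TGF-beta in the matrix, was at 188 and 248 CPM in class B, against 93.5 and 46.8 in the other gate cells. Ltbp2, a relative that does not bind TGF-beta, was at 27.6 and 27.5 CPM in class B, against 7.87 and 6.64 in the other gate cells. Mfap5, a microfibril protein, was lower, at 69.6 and 128 CPM in class B, against 469.9 and 377 in the other gate cells. Thus both higher genes encode latent TGF-beta binding protein relatives. Mfap4 was at 852 and 396 CPM in class B, against 243 and 226 in the other gate cells, short of 2-fold with suffix 2. Of 27 matrix glycoproteins, Spon2 and Ccn4, a WNT-induced secreted protein, were higher, and Thbs4, of tendon and muscle matrix, was lower, beside the same shares over all tested genes. Of 14 basement membrane genes, the laminin chain Lamc3 was higher, at 18.2 and 42.4 CPM in class B, against 7.43 and 3.62 in the other gate cells, and 3 were lower, Lamc1 and Nid2 among them. None of 29 proteases and inhibitors was higher and 5 were lower, again beside 1.2% and 3.83%. Timp1, an inhibitor of metalloproteinases, was at 48.1 and 91.5 CPM in class B, against 144 and 456 in the other gate cells. Plau, which encodes urokinase, was at 2.34 and 1.57 CPM in class B, against 32.8 and 91.8 in the other gate cells. Ctsk, a collagen-degrading cathepsin, was at 3103 and 2476 CPM in class B, against 1831 and 749 in the other gate cells, short of 2-fold with suffix 1. Both called hyaluronan genes of 6 tested, the synthase Has2 and Itih5, were lower.

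Of 8 genes of a list on type V collagen, the laminin chain Lama2, Csf1 and BMP ligands, 1 was lower and none higher, beside 3.83% and 1.2% over all tested genes. The lower gene was Col5a3. Csf1, the growth factor that keeps macrophages alive, was at 722 and 1095 CPM in class B, against 846 and 955 in the other gate cells, in 222 class B cells. Lama2, a laminin chain, was at 78.95 and 139 CPM in class B, against 195 and 142 in the other gate cells. The median of the list was 0.52, and with totals without gate genes and Sparc no gene of it was lower and 1 was higher.

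Of all lists, signals to leukocytes had the most lower genes: 14 of 23 tested were lower and none was higher, beside 3.83% and 1.2% over all tested genes, with a median of −1.52. Their levels summed to 3863 and 8680 CPM in class B and 13857 and 34780 in the other gate cells. With totals without gate genes and Sparc, 12 genes of the list were lower. Cxcl1, which attracts neutrophils, was at 227 and 267 CPM in class B, against 2463 and 8836 in the other gate cells (log2 ratio −4.65, interval −4.73 to −4.56). Cxcl2 and Cxcl5 act on the same cells. Cxcl2 was at 159 and 32.6 CPM in class B, against 939 and 3169 in the other gate cells, and Cxcl5 had 1 UMI in class B (log2 ratio −10.07, interval −15.38 to −7.59). Most of the Cxcl5 in other gate cells lay in the library with suffix 2, where it was at 383.9 CPM against 7.43 with suffix 1. Cxcl13, which attracts B lymphocytes, had 1 UMI in class B (log2 ratio −9.29, interval −14.60 to −6.81), as did Cxcl3 (log2 ratio −8.72, interval −14.03 to −6.24). Cxcl14, a chemokine of skin, was at 24.8 and 2.36 CPM in class B, against 179.7 and 675 in the other gate cells. Il6, an inflammatory cytokine, was at 119 and 232 CPM in class B, against 828 and 1252 in the other gate cells, and Il33, an alarmin of stromal cells, was at 7.47 and 23.6 CPM in class B, against 78.7 and 296 in the other gate cells. Ptgs2, the inducible cyclooxygenase, was at 14.01 and 35.4 CPM in class B, against 363 and 1209 in the other gate cells, in 27 class B cells. Gate cells without a class were also low in some of these genes, at 2000 UMIs per cell. Ptgs2 was found in 2.82% of them, 3.98% of class B, 41.4% of class A and 25.6% of class C. For Cxcl14 these shares were 5.63%, 2.79%, 34.8% and 47.0%, and for Cxcl1 they were 25.35%, 15.9%, 78.5% and 64.1%. These genes thus set class B apart from classes A and C more than from gate cells without a class.

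Chemokines that attract monocytes were lower too but remained abundant. Ccl2 was at 791 and 2432 CPM in class B, against 3471 and 7319 in the other gate cells, and Ccl7 at 916 and 2722 CPM in class B, against 2807 and 7277 in the other gate cells. Both were lower than in class A and did not reach 2-fold in each library against class C. Of 10 complement genes, 4 were lower and none higher, beside 3.83% and 1.2% over all tested genes. C1s1, a protease of the classical pathway, was at 80.8 and 349 CPM in class B, against 369 and 752 in the other gate cells. Interferon response genes gave 3 lower of 16, and Ifi27l2a was at 7.01 and 11 CPM in class B, against 499 and 463 in the other gate cells. Immediate early and heat shock genes, which dissociation of tissue can induce, gave 1 lower of 24, Myc, beside the same 3.83%, with a median of −0.19. Fos, of that list, was at 1607 and 1947 CPM in class B, against 1287 and 1184 in the other gate cells.

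Further genes were named among the 15 with the lowest ratio. Plac8 was at 2.80 and 0 CPM in class B, against 167 and 503 in the other gate cells, and Sult1e1, which sulfates estrogen, had 0 UMIs in class B and a log2 ratio of at most −7.39 with the limit of 3 counts. Smpd3, which splits sphingomyelin, was at 0.934 and 1.18 CPM in class B, against 114 and 88.4 in the other gate cells. Fmo2, a monooxygenase, was at 1.40 and 2.36 CPM in class B, against 30.2 and 78.5 in the other gate cells, and Thbs4 was at 8.88 and 0 CPM in class B, against 201 and 74.9 in the other gate cells. Of these 5 genes, Thbs4 had the most UMIs in class B, 19.

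Growth factors and their receptors gave 1 higher and 7 lower of 21, beside 1.2% and 3.83% over all tested genes. Sema3a, a repulsive guidance signal for axons, was higher, at 39.2 and 53.8 CPM in class B, against 8.74 and 3.62 in the other gate cells. Sema3c, of the same family, was lower, at 52.3 and 49.9 CPM in class B, against 188 and 121 in the other gate cells. Fgf7, which acts on keratinocytes, was at 30.8 and 39.3 CPM in class B, against 63.8 and 95.99 in the other gate cells, and Vegfd, of lymphatic vessel growth, was at 7.94 and 14.5 CPM in class B, against 41.5 and 50.7 in the other gate cells. Of 34 transcription factors, 1 was higher and 8 lower, beside the same shares. Sox11, of embryonic mesenchyme, was at 79.9 and 18.1 CPM in class B, against 20.98 and 1.81 in the other gate cells, in 36 class B cells. Foxp1 was at 18.7 and 38.9 CPM in class B, against 83.5 and 125 in the other gate cells, and Zeb1 at 41.1 and 40.1 CPM in class B, against 85.2 and 105 in the other gate cells. The call of Zeb1 is lost with totals without gate genes and Sparc, where 3 transcription factors were higher and 7 lower. Twist1, of mesenchyme, was at 338 and 365 CPM in class B, against 186 and 184 in the other gate cells, short of 2-fold with each suffix. Integrins gave 2 lower of 9, Itga6 and Itga11, beside the same 3.83%, and none of 5 relatives of C1qtnf3 passed 2-fold in both libraries. Of 4 cell cycle genes, Cdkn1c, an inhibitor of the cycle, was lower, at 36.4 and 66.01 CPM in class B, against 88.3 and 199 in the other gate cells.

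**Figure D4:**
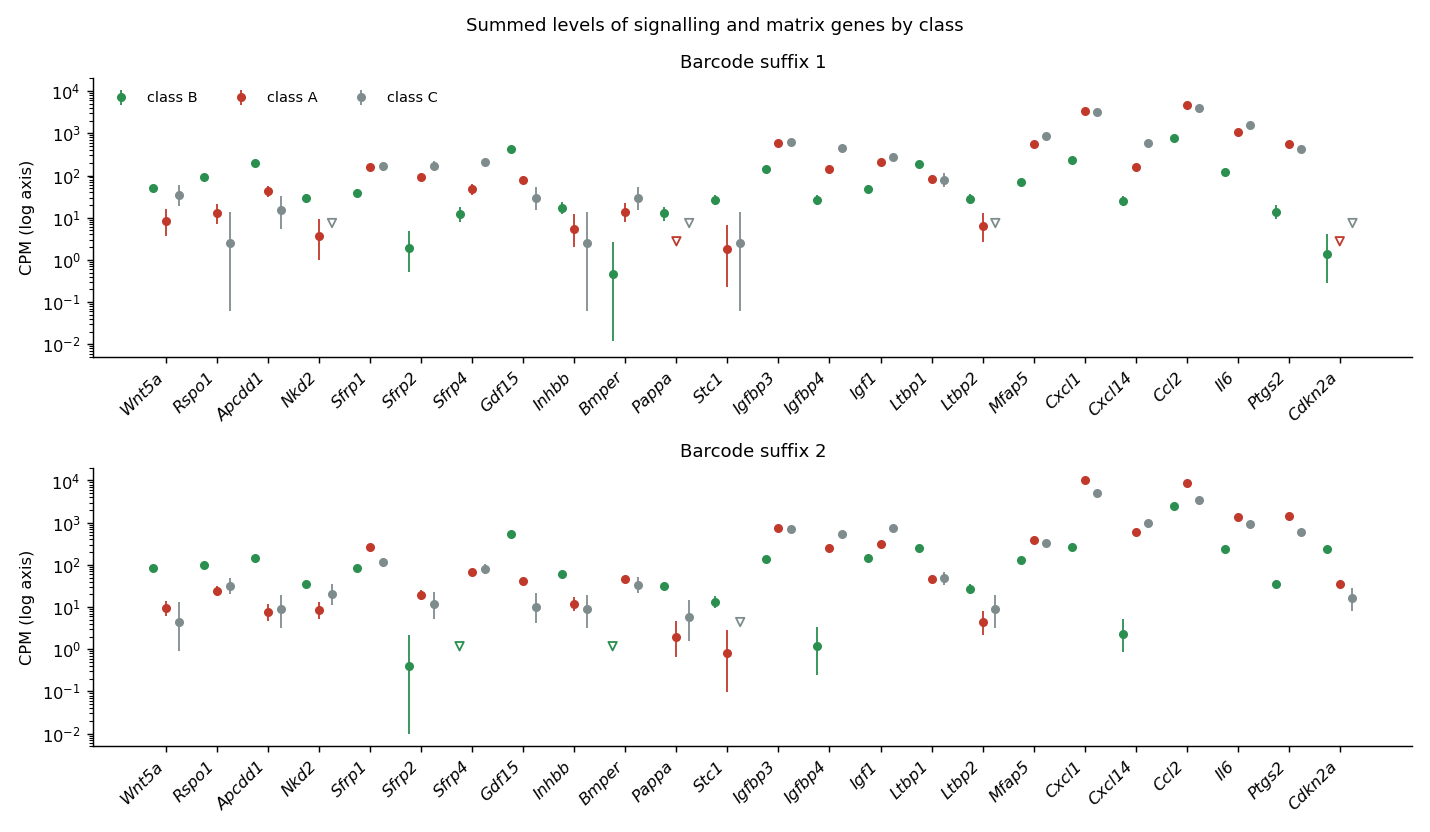
Points are summed levels in CPM on a log axis, with exact Poisson 95% intervals, for classes B, A and C in the library with suffix 1 (top) and suffix 2 (bottom); open triangles mark the limit of 3 counts where a class had no UMI. Wnt5a, Rspo1, Apcdd1 and Gdf15 are higher in class B than in class A in both panels, and Cxcl1, Il6 and Ptgs2 are lower, while Cdkn2a in class B is at 1.40 with suffix 1 and at 243.6 with suffix 2.

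Within class B, some genes differed widely between libraries, and the genes given here were chosen after their values were seen. Cdkn2a, which encodes inhibitors of the cell cycle, was at 1.40 and 244 CPM in class B (in 2 of 102 and 91 of 157 cells), 0 and 35.6 in class A and 0 and 16.1 in class C. At 2000 UMIs per cell it was found in 0 of 102 class B cells with suffix 1, which allows up to 2.94% by the limit of 3 counts, and in 39 of 149 with suffix 2 (26.2%, 19.3 to 34.0%). Among class A cells with suffix 2, it was found in 13 of 196 at that depth, and in 1 of 2040 cells with leukocyte markers. Ctla2a, Grem1 and Thbs1, a matrix glycoprotein, were also more abundant with suffix 2. Thbs1 was at 278 and 1588 CPM in class B (in 46 of 102 and 108 of 157 cells), 715 and 3289 in class A and 498 and 414 in class C. Ccl11, which attracts eosinophils, was at 15.9 and 169.7 CPM in class B (in 8 of 102 and 80 of 157 cells), 268 and 702 in class A and 704 and 966 in class C. More abundant with suffix 1, Cthrc1, a secreted protein of collagen-rich tissue, was at 228 and 26.7 CPM in class B (in 44 of 102 and 27 of 157 cells), 163 and 51.2 in class A and 142 and 19.1 in class C. Meg3, a noncoding RNA of an imprinted locus, was at 2939 and 948 CPM in class B (in 97 of 102 and 85 of 157 cells), 1766 and 410.2 in class A and 1095 and 98.3 in class C. Gate cells without a class had Cthrc1 at 286 and 22.96 CPM, Meg3 at 2783 and 283 and Cdkn2a at 1.28 and 99.5. In the same cells, Thbs1 was at 318 and 1814 CPM and Ccl11 at 89.5 and 758. These differences between libraries were thus not particular to class B. Sparc and the collagens of the gate took more of the UMIs with suffix 1 in classes A, B and C. The ages of the libraries are unknown and each is 1 library, so age, animal, gate composition and library preparation cannot be told apart.

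Class B was also split by the 3 genes of its working name, a choice made after the data were seen. The 3 class B cells with a leukocyte sum of at least 20 per 10,000 were left out. Cells with Igfbp2 (21 with suffix 1, 43 with suffix 2) and the 192 without it had alike depth over both libraries, with medians of 17290 and 17372 UMIs. With suffix 1 alone, the cells with Igfbp2 had a lower median depth than those without, and the part of depth was not tested. Of 4749 genes, 43 were higher (0.905%) and 36 lower (0.758%) in the cells with Igfbp2. Wnt5a was at 147 and 193 CPM in the cells with Igfbp2, against 24.1 and 35.3 in those without. Ccn4 was at 63.6 and 59.1 against 12.3 and 8.67, and Sema3a at 129.7 and 106 against 16.5 and 28.9. Socs1, an inhibitor of cytokine signals, was at 257 and 323 against 60.6 and 105. Fxyd6, a regulator of the sodium pump, was at 164 and 48.6 against 7.64 and 8.67. Wnt5a, Apcdd1 and Rspo1, higher in class B as a whole, were higher in its Igfbp2 cells. Nkd2 did not reach 2-fold with suffix 2 in this split. Genes lower in the cells with Igfbp2 included Gpx3 at 264 and 7.88 against 898 and 433, Cthrc1 at 61.2 and 6.56 against 271 and 36.4 and Ogn at 125 and 143 against 336 and 527. Lgr5, a receptor of R-spondins, was at 2.45 and 23.6 against 38.2 and 78.6.

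Cells with Cyp26b1, 163 of 256, had 60 genes higher (1.26%) and 15 lower (0.316%) than the 93 without it. Wnt5a was again higher, at 68.03 and 110.1 CPM in the cells with Cyp26b1, against 29.7 and 15.7 in those without. Inhbb was at 29.01 and 73.8 against 7.21 and 17.1, and Coch, a secreted matrix protein, at 75.03 and 43.6 against 0.901 and 2.85. Ccbe1, of lymphatic vessel growth, was at 56.02 and 69.3 against 8.11 and 7.12. Gpx3 was lower, at 381 and 83.3 against 1131 and 862, as was Cthrc1. For Grem1, the split of 134 cells with it and 122 without gave 16 higher (0.337%) and 34 lower (0.716%). Procr, a receptor of protein C, was at 109 and 308 CPM in the cells with Grem1, against 45.97 and 117 in those without. Wnt5a was at 87.8 and 100 against 27.3 and 36.8. Coch was lower in cells with Grem1, at 0 and 2.17 against 54.6 and 117, the opposite of its direction in the Cyp26b1 split. The same held for Inhbb, at 6.97 and 44.6 against 22.99 and 95.09. Further genes lower with Grem1 were Postn and Mfap4, of the matrix, and Tagln, of the contractile cytoskeleton. Postn was at 107 and 22.3 against 284 and 308, Mfap4 at 453 and 145 against 1076 and 1136 and Tagln at 0 and 6.52 against 19.4 and 166. Wnt5a and Sema3a were higher with each of the 3 genes, but the same cells enter each split. Each split also uses a gene of the rule. A member must carry at least 2 of the 5 genes, so a cell without the gene of a split carries others. The 3 splits are thus not independent. The part of the rule in shared or opposite directions was not tested. Depth moved with the Cyp26b1 and Grem1 splits. Medians were 16451 UMIs with Cyp26b1 and 20578 without, and 18264 with Grem1 and 15181 without. The part of depth was not tested.

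Markers of other cell types were checked in the same sums, and their part in the results was not tested except where a value is given. Of 13 macrophage genes, all had a UMI in class B, and they summed to 260.2 and 352 CPM in class B and 525 and 204 in the other gate cells. Lyz2 was the most abundant, and C1qa and C1qb were lower in class B. The 7 MHC class II genes summed to 640.5 and 1517 CPM in class B and 1576 and 329 in the other gate cells, led by Cd74. Only 3 class B cells, 1 with suffix 1 and 2 with suffix 2, had a leukocyte sum of at least 20 per 10,000. Without these 3 cells, Cd74 was at 76.3 CPM, 0.288% of its level in leukocyte cells, and Lyz2 was at 26.7, or 0.387%. Ptprc, the pan-leukocyte phosphatase, was then at 0.652, with a UMI in 3 of 256 cells. Csf1r, the receptor of Csf1, did not share this ratio: it was at 50.4 CPM, 11.8% of the leukocyte level, in 105 of 256 cells. Leaving out all gate cells with such a sum gave 86 higher and 285 lower genes.

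The 8 keratinocyte genes summed to 24.8 and 21.6 CPM in class B and 49.8 and 44.4 in the other gate cells, led by Krt10, and the 7 endothelial genes were led by Cldn5, with none at 0. The 8 pericyte and smooth muscle genes summed to 127 and 98.6 CPM in class B and 141 and 62.2 in the other gate cells. The 4 of them that were tested had a median log2 ratio of 1.28, and none was called, though 2 were higher over class C and 2 with totals without gate genes and Sparc. Their most abundant gene was Abcc9, a potassium channel subunit, at 25.2 and 48.3 against 14.4 and 6.04, while Acta2, of contractile cells, was at 23.4 and 7.46 against 34.5 and 23.2. The 7 Schwann genes summed to 479 and 728 CPM in class B and 901 and 752 in the other gate cells, led by Pmp22, which fibroblasts carry too. Mbp, a myelin protein, was lower in class B. The 4 melanocyte genes summed to 25.2 and 54.6 CPM in class B and 37.2 and 16 in the other gate cells, almost all from Mlana, with Dct and Tyrp1 at 0. All 5 adipocyte genes, Adipoq and Plin1 among them, were at 0. Of 6 lymphocyte genes, 5 were at 0, Cd3e, Cd3g and Ms4a1 among them, and the sum, from Cd79a, was 0.934 and 1.18 CPM in class B and 1.75 and 1.21 in the other gate cells. The 5 mast cell genes summed to 2.34 and 2.75 CPM in class B and 3.50 and 20.8 in the other gate cells, led by Mcpt4 with 1 at 0. The 5 skeletal muscle genes summed to 83.2 and 12.97 CPM in class B and 29.3 and 61.3 in the other gate cells, led by Acta1. The 4 red cell genes summed to 9.81 and 25.1 CPM in class B and 16.2 and 23.2 in the other gate cells, led by Hbb-bs. The 6 cartilage and bone genes summed to 7.01 and 4.32 CPM in class B and 42.4 and 23.9 in the other gate cells, led by Alpl with 3 at 0, and Sox9, of cartilage and follicles, had 1 UMI in class B (log2 ratio −6.91, interval −12.23 to −4.41).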

How the data were processed

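The authors deposited UMI counts, without normalization, of both libraries in 1 matrix, made with Cell Ranger 4.0.0 on mm10 per the labels. Groups were 1 library of 2 pooled mice per age, not mapped to suffixes. Gene identifiers were matched to GENCODE for positions, with 32235 of 32285 identifiers found. Members and gene lists were chosen with earlier results of these data known. Tested genes had at least 100 UMIs over the gate cells and 10 in each library, without the 25 genes of the 5-gene sums and of the gate. A sum of 0 was replaced by 3 counts. Levels have exact Poisson intervals and ratios exact binomial intervals, and no p-value was computed. Named were the genes of the rule, the 25 highest and 15 lowest ratios among called genes at 50 CPM or more, and from each list the called genes and up to 4 most abundant ones, a selection of which is printed. Alternatives changed the cell filter, gate, number of genes, library, thinning, weighting, fold and minimum counts, and 2 added after seeing the data changed the totals and required a gene of the name. Doublets were not called or removed. The code was tested on simulated data. Python 3.11.15, numpy 2.4.6, scipy 1.17.1, pandas 2.3.3 and matplotlib 3.10.9 were used.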

Additional observations from a re-analysis of the deposited data

How the results depend on the processing

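The share of gate cells in class B, 34.95%, became 24.83% with at least 3 of its genes required, 28.12% with cells thinned to 3000 UMIs, 45.03% with the gate at 200, and 29.15% when a UMI of Igfbp2, Grem1 or Cyp26b1 was required, a setting chosen after seeing the data. Under the other settings it lay within its interval. The count of higher genes, 88, became 270 at 1.5-fold, 166 with 20 UMIs for a tested gene, 22 with thinned cells, 327 with suffix 2 alone, 138 with the mean over cells and 145 with totals without gate genes and Sparc, also chosen after seeing the data. The count of lower genes, 281, became 589 at 1.5-fold, 455 with 20 UMIs and 92 with thinned cells. With cells thinned to 3000 UMIs, 2676 genes were tested, of which 0.822% were higher and 3.44% lower. Of those 22 higher genes, 11 were among the 88, and of the 92 lower genes, 81 were among the 281. Looser thresholds add genes and thinning removes tested genes by construction. The cause of the other shifts, and of the calls new with thinned cells, was not tested. Of 127 called genes named by the rule, 1 changed sign in any setting: Egr2, a transcription factor of tendon with 27 UMIs in class B, went from a log2 ratio of −1.40 to 0.57 with the gate at 200, and the cause was not tested. With suffix 1 alone 76 of the 127 ratios left their counting interval, with suffix 2 alone 59, with cells thinned to 3000 UMIs 82 (67 closer to 0) and with at least 3 genes required 61 (44 closer to 0), all with the same direction. Totals without gate genes and Sparc shift every pooled log2 ratio by about 0.16, so a list median just below 0 turns above it by construction, as for the elastic fibre genes (−0.01 to 0.15), glycoproteins (−0.12 to 0.04), retinoid genes (−0.05 to 0.11), transcription factors (−0.05 to 0.11), proteases (−0.10 to 0.06) and the 1 tested skeletal muscle gene (−0.11 to 0.05). With these totals, lower calls went from 5 to 4 among reticular and adipogenic genes and from 3 to 2 among basement membrane genes. Among growth factors and receptors they went from 7 to 6. No paired test was run, because no result comes from a test. Classes were compared within each library, and each age has 1 library. A sum of 0 UMIs allows up to 3 counts, and 1 library per suffix gives no spread between animals.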
